A study of Mus musculus with 8 samples.

Results

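The genes described here were listed for the differentiation of spermatogonia and the entry of male germ cells into meiosis. They are Kit, Stra8, Sohlh1, Sohlh2, Dmrt1, Dmrtb1, Ccnd2, Dazl and Boll, and all 9 were found among the 23983 genes of the expression table. They were taken by symbol and not by a limit on measured values, but with earlier results of these data known. Dmrtb1 and Boll had their highest levels at 24 days or in adults, so the list does not mark early germ cells alone. Total RNA was sequenced from pieces of testis, fresh or stored frozen. They came from C57BL/6J mice aged 12, 16 or 24 days (d12, d16, d24) and from adults. The labels name no mutation, transgene or treatment, and neither the age of the adults nor the number of animals per library is given in the sources used here. Each stage is represented by 1 library, so the spread between animals is unknown and no test between stages was made. The 4 ChIP-seq samples for H3K27Ac, a histone mark of active regulatory regions, are not analysed here.

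In the postnatal mouse testis, retinoic acid drives spermatogonia to switch on the receptor Kit, to divide as differentiating spermatogonia and then to enter meiosis as preleptotene spermatocytes. STRA8 and its partner MEIOSIN act at that last switch, and DMRT1 holds it back in spermatogonia. Because the first wave of germ cells advances in step after birth, later testes hold spermatocytes and then spermatids in addition to the earlier cells. In unsorted testis tissue, fewer cells of a type and less RNA per cell cannot be told apart.

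Levels are given in FPKM, fragments per kilobase of transcript relative to library size, as the authors scaled it. Ranges in parentheses are exact intervals at 95%, computed from fragments recovered from the deposited values, and take in counting error alone. Gene coordinates span all RefSeq transcripts, predicted ones included. For Dmrtb1 and Boll, whose curated transcripts differ in length, the interval rests on the shortest transcript and is approximate. The 4 libraries differ in the cells they hold. The summed level of 6 spermatogonial markers was 121.8 FPKM at d12, 69.1 at d16, then 41.9 at d24 and 30.8 in the adult. Most of it came from Uchl1, and Gfra1 alone was higher in the adult (2.415) than at d12 (1.2). The sum of 6 Sertoli cell markers was 180.6, 134.8, 83.01 and 63.0, with Amh at 0 in adult testis. Cldn11 was its largest part, at 95.4 FPKM at d12 and 28.0 in the adult. Over that interval Sox9 went from 12.2 to 2.14 and Rhox5 only from 20.3 to 16.7. The 6 markers of pachytene spermatocytes summed to 66.1, 863.6, 3666 and 4400 FPKM, and the 6 markers of early meiosis to 503.9, 887.7, 593.1 and 601.8. Most of that sum came from Sycp3, with 413.8 FPKM at d12 and 507.4 in the adult, while Dmc1 went from 45.7 to 12.3 and Prdm9 from 15.7 to 6.19, and Spo11 from 3.75 to 23.5 and Rec8 from 9.48 to 33.9. Leydig cell markers summed to 104.2, 89.0, 163.6 and 576.1 FPKM, although Star went from 18.8 at d12 to 15.1 in the adult. Round spermatid markers summed to 4.00, 15.4, 463.7 and 1111 FPKM. Those of elongating spermatids summed to 13.1 FPKM at d12, 4.45 at d16, then 2363 at d24 and 26392 in the adult, so d16 was lowest. The part of these shifts in the results below was not tested.

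From d12 to adult testis, 7 of the 9 genes were at least 2-fold lower and 2 were at least 2-fold higher. Sohlh1, Ccnd2, Stra8 and Dmrt1 were lower by the largest factors, Kit, Dazl and Sohlh2 by factors under 3, and Dmrtb1 and Boll went the other way. With each library divided by its summed Sertoli cell markers, Kit, Dazl and Sohlh2 no longer lay below their d12 level, at 1.01, 1.16 and 1.38 times it, and Dmrt1 lay below it by less than 2-fold, at 0.548 times. Under that scaling Stra8, Sohlh1 and Ccnd2, 3 of the 9, were at least 2-fold lower, where 2.84% of all genes were. The Sertoli cell markers themselves declined by unlike factors, and scaling by single markers was not done. Of the 13901 genes whose mean over the libraries reached 1 FPKM, 23.1% were at least 2-fold lower and 35.7% at least 2-fold higher over the same interval, in ratios of FPKM plus 0.1.

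**Figure D1:**
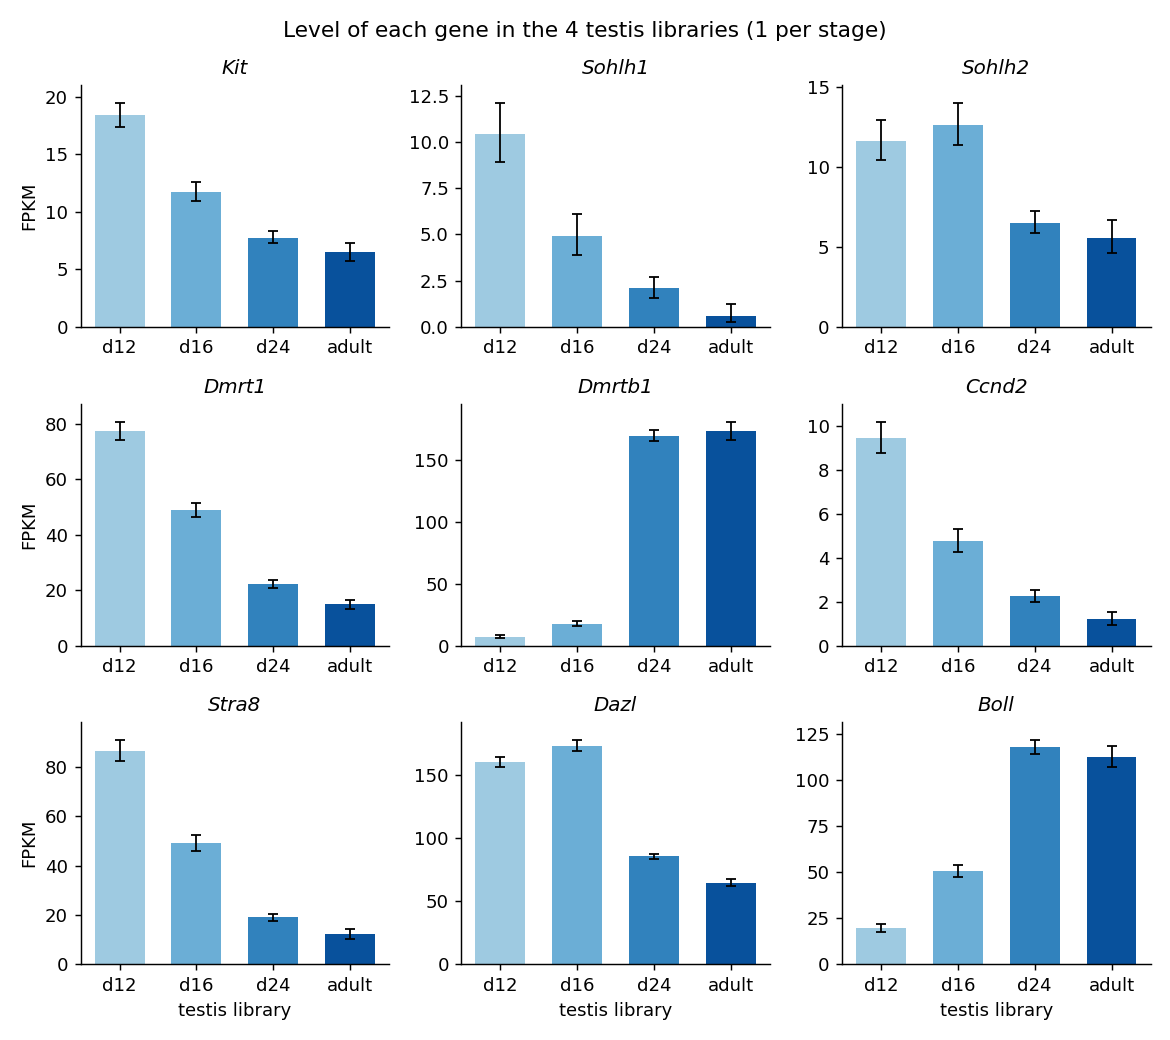
FPKM of the 9 genes (bars, each panel with its own axis from 0) in the 4 testis libraries, with exact 95% intervals for counting error as whiskers. As deposited, 5 panels step down at each stage, Sohlh2 and Dazl are highest at d16, and Dmrtb1 and Boll are highest at d24 or in adult testis.

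Kit encodes the receptor for stem cell factor, the membrane protein by which differentiating spermatogonia are recognised. It lies on the plus strand of chromosome 5 (GRCm38, 75574987 to 75656722). Kit had 18.4 FPKM at d12 (17.4 to 19.5), 11.7 at d16 (10.9 to 12.6), then 7.77 at d24 (7.26 to 8.30) and 6.49 in the adult (5.77 to 7.26). No intervals overlap, although those of d24 and adult testis nearly meet. Divided by the summed Sertoli cell markers, Kit turned from d16 to d24 and from d24 to adult testis, to ratios of 1.075 and 1.101. The adult level was 2.84-fold lower than that at d12 (2.50 to 3.24), the mildest decline among the genes that stepped down at every stage. Kit is also known from Leydig cells, and spermatids are known to use a shortened Kit transcript that begins inside the gene, which a single value per gene does not separate. Its ligand Kitl, made by Sertoli cells, followed the same order of stages with 25.6, 15.7, 7.18 and 6.19 FPKM, and was 4.13-fold lower in adult testis than at d12 (3.65 to 4.68).

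Sohlh1 and Sohlh2 encode basic helix-loop-helix transcription factors of spermatogonia that can act as partners. Sohlh1 lies on the minus strand of chromosome 2 (25842995 to 25847248) and Sohlh2 on the plus strand of chromosome 3 (55182044 to 55209957). The d12 library gave Sohlh1 10.4 FPKM from 168 fragments (8.89 to 12.1) and the d16 library 4.91 FPKM from 79 (3.88 to 6.11). It had 2.09 FPKM from 59 fragments at d24 (1.59 to 2.69), and 7 fragments gave 0.610 FPKM in the adult (0.245 to 1.26). Each level lay below the last with no overlap. This was the steepest decline of the 9 genes, 17.1-fold from d12 to adult testis, with a wide interval of 8.11 to 43.2 because few adult fragments remain. Only 0.374% of the 13901 genes changed by a lower ratio. Sohlh2 behaved differently in the early libraries. It had 11.6 FPKM at d12 (10.4 to 12.9) and 12.7 at d16 (11.4 to 14.0), with overlapping intervals whose order turned with the upper quartile as scaling (ratio 0.993), then 6.53 at d24 (5.85 to 7.27) and 5.59 in adult testis (4.62 to 6.70). Within each library, where the scaling between libraries cancels, the ratio of Sohlh1 to Sohlh2 was 0.896 at d12 (0.739 to 1.079), 0.387 at d16 (0.2995 to 0.494), then 0.319 at d24 (0.238 to 0.422) and 0.109 in the adult (0.0429 to 0.232). Both partners were thus at like levels only at d12, and Sohlh2 exceeded Sohlh1 by 9.16-fold in adult testis (4.31 to 23.3).

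The region before the start of Sohlh1 is shown because it carries several E-boxes, the short element bound by helix-loop-helix factors, and because none of the other genes declined more. The table matched 7 of the 9 genes, with 10 promoters; Dmrt1 and Ccnd2 are missing. The sequence covers the 250 bases before the annotated start, chr2:25847249-25847498 of GRCm38, read on the minus strand from the RefSeq promoter table. Capitals mark the E-box CANNTG, the hexamer AGGTCA of retinoic acid receptors and the core ACANTGT of the DMRT1 motif.
Sohlh1: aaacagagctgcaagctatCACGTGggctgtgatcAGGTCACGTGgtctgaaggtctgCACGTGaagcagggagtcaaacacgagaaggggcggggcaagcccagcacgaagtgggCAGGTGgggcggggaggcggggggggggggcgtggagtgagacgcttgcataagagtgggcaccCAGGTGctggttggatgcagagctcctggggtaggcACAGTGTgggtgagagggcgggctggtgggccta
Of the E-boxes, 3 have the form CACGTG, at 231, 211 and 192 bases before the start, and the middle one overlaps the AGGTCA match. Of 32851 promoters of the same length in the table, 7.15% hold CACGTG at least once and 0.0883% (29 promoters) at least 3 times, on either strand and within 250 bases before to 50 after the start. The number 3 was taken from Sohlh1 itself, which was shown for its E-boxes, so this share is descriptive and tests nothing. With every form of CANNTG counted, of which CACGTG is one, Sohlh1 has 5 matches, a number reached by 2.1% of promoters. Sohlh2 has 1 CANNTG match, as do 72.3% of promoters at least once, and 1 match to CNCCTCAG, the motif described for STRA8 and MEIOSIN (7.94% of promoters). Such matches describe the letters only and show no binding.

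Dmrt1 and Dmrtb1, which encode DM domain transcription factors of spermatogonia, moved in opposite directions. Dmrt1, also expressed by Sertoli cells, lies on the plus strand of chromosome 19 (25505618 to 25604328). Dmrt1 had 77.4 FPKM at d12 (74.2 to 80.7), 48.9 at d16 (46.3 to 51.5), then 22.2 at d24 (20.9 to 23.5) and 14.8 in the adult (13.2 to 16.6). It was 5.23-fold lower in adult testis than at d12 (4.63 to 5.93), and no intervals of these levels overlap. Dmrtb1, known for closing the spermatogonial programme as meiosis begins, lies on the minus strand of chromosome 4 (107676288 to 107704011). Dmrtb1 had 7.07 FPKM at d12 (5.85 to 8.46), 17.6 at d16 (15.6 to 19.7), then 169.8 at d24 (165.1 to 174.6) and 173.5 in the adult (166.1 to 181.1). Its largest step was 9.65-fold between d16 and d24 (8.59 to 10.9), and the adult level was 24.5 times that at d12 (20.4 to 29.8). A non-coding gene on the plus strand overlaps Dmrtb1, and whether its fragments were kept apart is not known here. From the lowest of the 9 genes at d12, Dmrtb1 became the highest at d24 and in adult testis. The ratio of Dmrtb1 to Dmrt1 within a library went from 0.0914 at d12 (0.0752 to 0.1099) to 0.360 at d16 (0.316 to 0.408), then 7.66 at d24 (7.17 to 8.19) and 11.7 in the adult (10.4 to 13.3).

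For comparison with Sohlh1, the 250 bases before the outer of the 2 Dmrtb1 starts in that table, the member with the largest increase, are given from chr4:107684231-107684480 (GRCm38, minus strand), with CANNTG in capitals.
Dmrtb1: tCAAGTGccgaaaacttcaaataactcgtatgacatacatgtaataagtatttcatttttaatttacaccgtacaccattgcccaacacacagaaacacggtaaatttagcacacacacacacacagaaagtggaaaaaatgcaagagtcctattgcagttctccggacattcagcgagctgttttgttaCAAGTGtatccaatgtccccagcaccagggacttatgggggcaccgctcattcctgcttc
This window and the 50 bases after it contain 3 CANNTG matches, of which 1 crosses the start and is not capitalised, none of the form CACGTG, and no match to the other motifs searched. Among the members in that table, only Sohlh1 and Boll hold CACGTG. The Boll match lies 9 bases before an annotated start, and Boll was higher in adult testis than at d12. The share of G and C is 44.7% in this Dmrtb1 promoter and 63.3% in the Sohlh1 promoter, where the median of all promoters is 52.7%. The promoter of the inner start, that of a non-coding transcript, has 74.7%. The values per gene do not tell which start was used.

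Ccnd2 encodes cyclin D2, which drives the G1 phase of the cell cycle and is known to be switched on when spermatogonia start to differentiate. It lies on the minus strand of chromosome 6 (127125162 to 127152188). Ccnd2 had 9.45 FPKM at d12 (8.75 to 10.2), 4.77 at d16 (4.28 to 5.30), then 2.24 at d24 (1.99 to 2.52) and 1.205 in the adult (0.924 to 1.55). A non-coding gene on the plus strand overlaps Ccnd2, as one does Dmrtb1. The study's methods name a strand-specific setting for the mapping but none for the FPKM step. Whether fragments of such overlaps were assigned by strand is therefore not known here. Each stage lay below the one before with no overlap of intervals, and the adult level was 7.84-fold lower than at d12 (6.04 to 10.3). The other D-type cyclins did not share one course. Ccnd1 was 3.92-fold lower in adult testis than at d12 (3.15 to 4.97), from 10.9 to 2.78 FPKM, whereas Ccnd3 was 4.83 times higher (3.86 to 6.04), from 4.06 to 19.6 FPKM. Ccnd3 had 2.67 FPKM at d16 and 10.2 at d24, so as deposited it was lowest at d16. Its intervals at d12 (3.33 to 4.93) and d16 (2.09 to 3.40) overlap.

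Stra8, the gatekeeper of meiotic entry that retinoic acid induces, lies on the plus strand of chromosome 6 (34920163 to 34939344). It had 86.4 FPKM at d12 (82.2 to 90.8), 49.2 at d16 (46.0 to 52.5), then 19.0 at d24 (17.5 to 20.6) and 12.3 in the adult (10.4 to 14.3). Thus d12 was highest and no interval overlaps another. Stra8 was 1.76-fold lower at d16 than at d12 (1.62 to 1.91), 2.59-fold lower at d24 than at d16 (2.33 to 2.87) and 1.55-fold lower in adult testis than at d24 (1.31 to 1.86). Over the whole series it was 7.05-fold lower (6.011 to 8.38). Against Kit in the same library, Stra8 stood at 4.70 times at d12 (4.35 to 5.06), 4.19 at d16 (3.80 to 4.62), then 2.44 at d24 (2.202 to 2.71) and 1.89 in the adult (1.55 to 2.29), so it declined more than Kit under any scaling of the libraries.

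The promoter of Stra8 holds the letters AGGTCA at 2 places. Of all promoters, 16.3% hold it at least once and 1.81% at 2 or more places. The matches are shown with 8 bases on each side, the motif in capitals, because retinoic acid receptors are known to bind such hexamers. The first lies at chr6:34920746-34920767 and the second at chr6:34920902-34920923, both on the plus strand of GRCm38, 194 and 38 bases before the start of the curated transcript.
Stra8 first: gggtgaaaAGGTCAtcttgctc
Stra8 second: ggggtaccAGGTCAgtttttta
A match to ACANTGT, the core of the DMRT1 motif, lies between them at 145 bases before the start, as in 7.54% of promoters. No CANNTG lies in the window of Stra8.

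Dazl and Boll encode RNA-binding proteins of the same family, named after the human gene Deleted in azoospermia. Dazl acts in germ cells before and during entry into meiosis, and Boll in later stages, with loss of Boll in mice known to stop sperm formation at round spermatids. Dazl lies on the minus strand of chromosome 17 (50279393 to 50293620) and Boll on the minus strand of chromosome 1 (55243566 to 55363789). Dazl had 160.4 FPKM at d12 (156.3 to 164.6), 173.5 at d16 (169.3 to 177.9), then 85.7 at d24 (83.4 to 87.9) and 64.9 in the adult (61.8 to 68.0). It was the highest of the 9 genes at d12 and d16. The d16 value exceeded that of d12 by 1.082 times (1.04 to 1.12) as deposited, and once all libraries had an equal FPKM sum it was 0.996 times, so the order of d12 and d16 depends on the scaling. Boll had 19.5 FPKM at d12 (17.6 to 21.7), 50.6 at d16 (47.3 to 54.0), then 118.0 at d24 (114.2 to 121.8) and 112.9 in the adult (107.2 to 118.9). It was 2.59 times higher at d16 than at d12 (2.28 to 2.93) and 2.33 times higher at d24 than at d16 (2.17 to 2.51), while the intervals of d24 and adult testis overlap. For both Boll and Dmrtb1 the order of d24 and adult testis depends on the scaling, with ratios of adult to d24 from 0.686 to 1.26 for Boll and from 0.733 to 1.35 for Dmrtb1.

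The relation of these relatives turned over in the course of the first wave. Dazl exceeded Boll by 8.21-fold at d12 (7.36 to 9.16) and by 3.43-fold at d16 (3.20 to 3.68). At d24 Boll stood at 1.38 times Dazl (1.32 to 1.44) and in adult testis at 1.74 times (1.62 to 1.87). No interval of these ratios overlaps another, and the comparison within a library does not depend on the scaling between libraries.

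**Figure D2:**
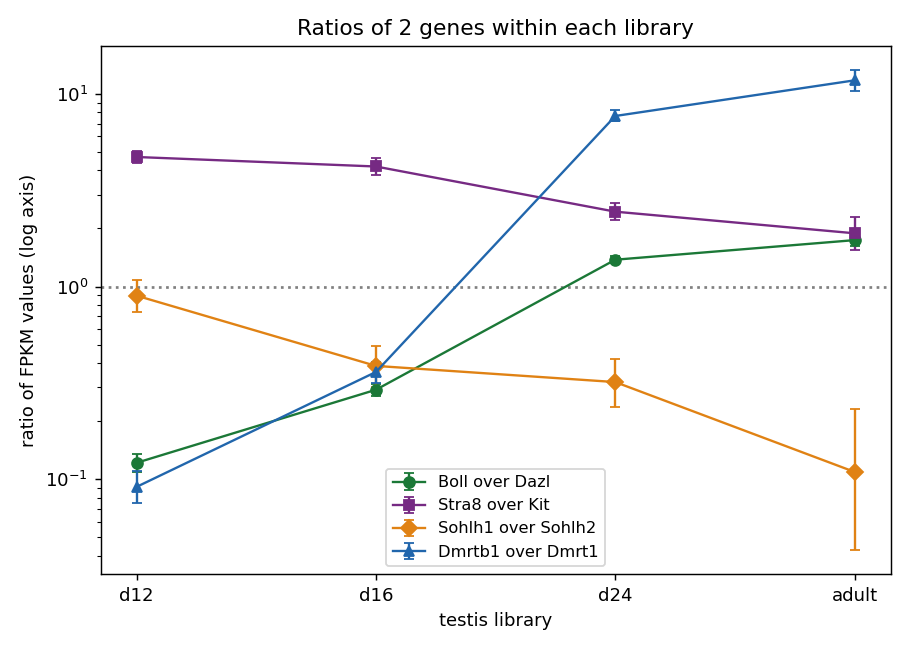
Ratio of FPKM values of 2 genes within each testis library (log axis), with 95% intervals for counting error as whiskers. Boll over Dazl and Dmrtb1 over Dmrt1 cross 1 between d16 and d24, Sohlh1 over Sohlh2 goes from 0.896 to 0.109, and Stra8 over Kit from 4.70 to 1.89.

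From d12 to d16, Dmrtb1 and Boll were at least 2-fold higher, 2 of 9 genes where 12.6% of all genes tested were, and only Sohlh1 was at least 2-fold lower, against 3.67% of all genes. Ccnd2 missed this limit narrowly, at 1.98-fold lower (1.74 to 2.26). From d16 to d24, Stra8, Sohlh1, Dmrt1, Ccnd2 and Dazl were at least 2-fold lower, 5 of 9 genes against 8.45% of all genes, and Dmrtb1 and Boll at least 2-fold higher, against 27.5%. Divided by the summed Sertoli cell markers, 0 of the 9 were at least 2-fold lower in this step, where 1.04% of all genes were, and with equal FPKM sums Boll did not reach the limit (1.52 times) and 19.4% of all genes did. Dazl lay just past the limit at 2.03-fold (1.95 to 2.101) and Sohlh2 just short of it at 1.94-fold (1.67 to 2.26). From d24 to adult testis no member was at least 2-fold higher, where 11.4% of all genes were, and Sohlh1 alone was at least 2-fold lower, against 2.2%. Its value there rests on 7 adult fragments, and with 1 FPKM added to each value it reached the limit at none of the 3 steps.

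On the log2 scale, the median change of the 9 genes was -0.64 from d12 to d16, -1.02 from d16 to d24 and -0.40 from d24 to adult testis. The medians of all 13901 genes were 0.00, 0.13 and -0.02. From d12 to adult testis the medians were -1.49 for the 9 genes and 0.20 for all. Rescaling to the same FPKM sum shifted the median of all genes by -1.2 over that interval, the upper quartile by -0.65 and the summed Sertoli cell markers by 1.5. The place of a gene among all genes hardly moves with such a shift. By that measure, 1.39% of genes had a lower ratio of adult to d12 than Ccnd2, 1.51% than Stra8, 3.15% than Dmrt1, 13.6% than Kit, 17.0% than Dazl, 22.1% than Sohlh2, 78.9% than Boll and 86.9% than Dmrtb1.

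**Figure D3:**
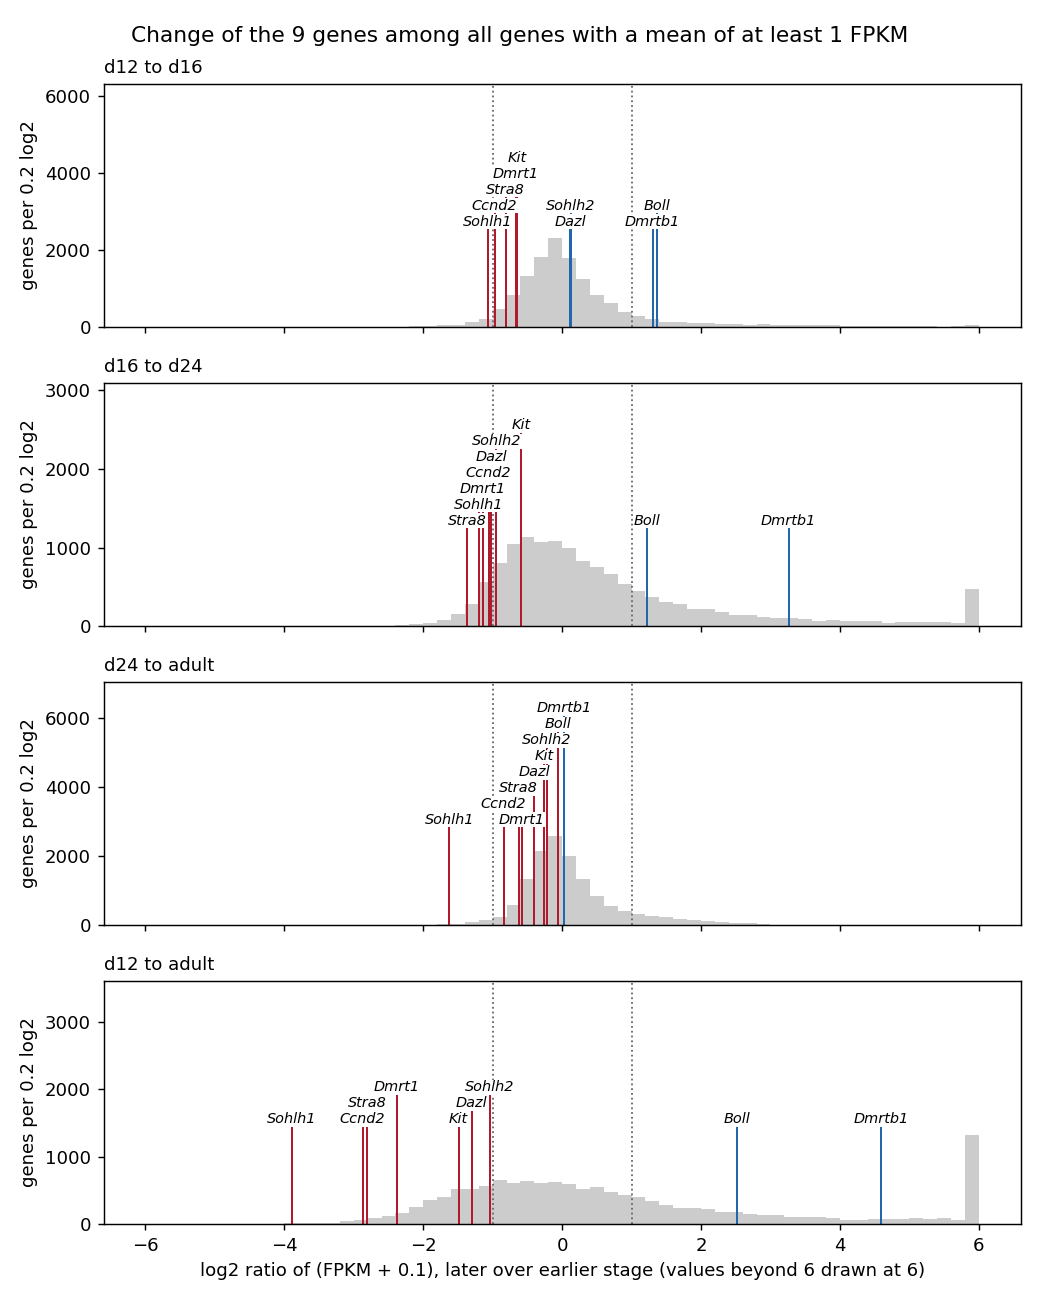
Histograms of the log2 ratio of FPKM plus 0.1 over 13901 genes for each pair of stages, with the 9 genes as lines (red below 0, blue above) and dotted lines at a 2-fold change. In the panel from d12 to adult testis, 7 genes lie to the left of the left dotted line and Boll and Dmrtb1 to the right of the right one.

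**Figure D4:**
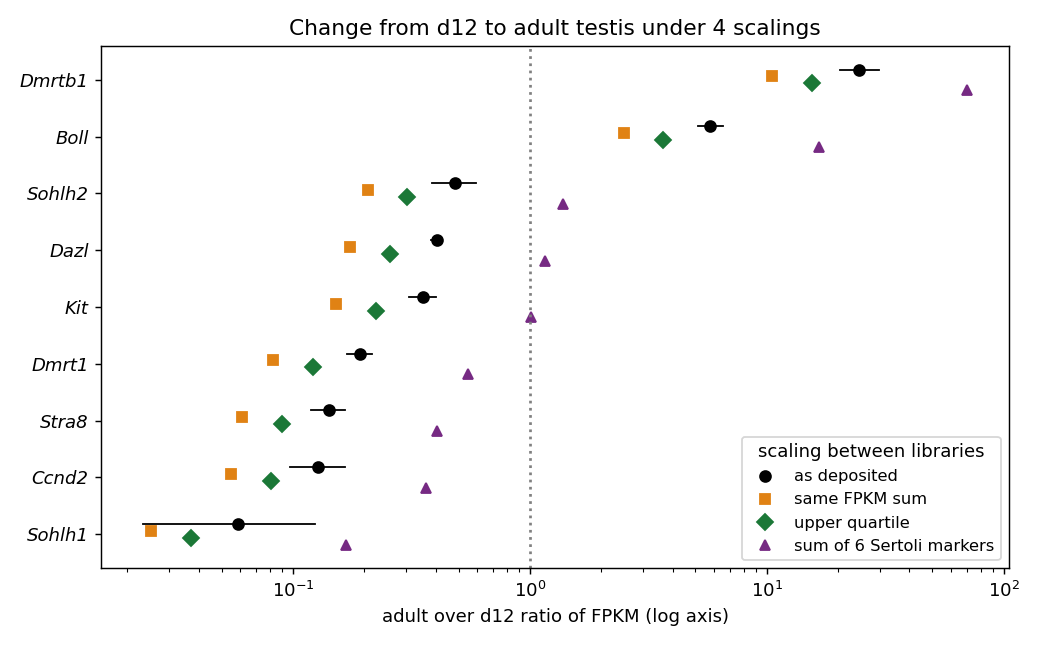
Adult over d12 ratio of FPKM (log axis) of each gene as deposited, with its 95% interval for counting error, and under 3 other scalings of the libraries. The direction holds under all 4 for Sohlh1, Ccnd2, Stra8, Dmrt1, Boll and Dmrtb1, and divided by the Sertoli cell markers Kit, Dazl and Sohlh2 reach 1.01, 1.16 and 1.38.

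The order of levels within a library changed accordingly. At d12, from the highest, it was Dazl, Stra8, Dmrt1, Boll, Kit, Sohlh2, Sohlh1, Ccnd2 and Dmrtb1. In that order Boll and Kit, Sohlh2 and Sohlh1, and Sohlh1 and Ccnd2 have overlapping intervals. In adult testis it was Dmrtb1, Boll, Dazl, Dmrt1, Stra8, Kit, Sohlh2, Ccnd2 and Sohlh1, where the intervals of Dmrt1 and Stra8, of Kit and Sohlh2, and of Ccnd2 and Sohlh1 overlap. Among all 23983 genes, Stra8 ranked 489 at d12 and 6433 in adult testis, counted from the highest level, and Dazl went from rank 213 to 2070. Dmrtb1 went from rank 6736 to 745 over the same stages.

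Of 23 other genes of spermatogonia and meiotic entry, 22 have a value in the table, Meioc among them under an older symbol, and no value is given here for Meiosin. Of these, 17 reached the mean of 1 FPKM. From d12 to adult testis, 9 of the 17 were at least 2-fold lower and 4 at least 2-fold higher, against 23.1% and 35.7% of all genes. These counts are as deposited and were not recomputed under the other scalings. The summed Sertoli cell markers were themselves 2.87-fold lower over this interval, by more than Prdm9 and Taf4b. The lower ones include the spermatogonial factors Sall4, at 10.0-fold lower (5.04 to 22.1, on 9 adult fragments), and Lin28a, at 7.03-fold lower (5.20 to 9.70), and the retinoic acid receptor gene Rarg at 3.63-fold lower (2.32 to 5.87). Cdk4, the kinase partner of D-type cyclins, was 2.94-fold lower (2.37 to 3.68), Prdm9, which places meiotic DNA breaks, 2.53-fold lower (1.97 to 3.29), and Taf4b, a germ cell subunit of the transcription machinery, 2.40-fold lower (2.203 to 2.62). Kitl, Ccnd1 and Dmrta1 complete the 9. The higher ones are Dmrtc2, Ccnd3, the germ cell helicase gene Ddx4 and the meiotic cohesin gene Rec8.

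Ddx4, which marks germ cells at large, had 84.7 FPKM at d12, 219.3 at d16, then 379.8 at d24 and 395.8 in the adult, an increase of 4.67 times (4.48 to 4.87). As deposited, its levels stepped up as those of Kit, Stra8 and Dmrt1 stepped down. The last Ddx4 step was small, at 1.042 times (1.018 to 1.067), and was not recomputed under the other scalings. Rec8 had 9.48 FPKM at d12, 7.63 at d16, then 23.5 at d24 and 33.9 in the adult, so that it was 3.57 times higher in adult testis than at d12 (3.07 to 4.17) where Stra8 was lower. Meioc, required for the meiotic programme to be kept, had 59.6, 100.1, 118.9 and 110.4 FPKM. Ythdc2, its partner in binding RNA, had 28.5 FPKM at d16, its highest value as deposited.

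**Figure D5:**
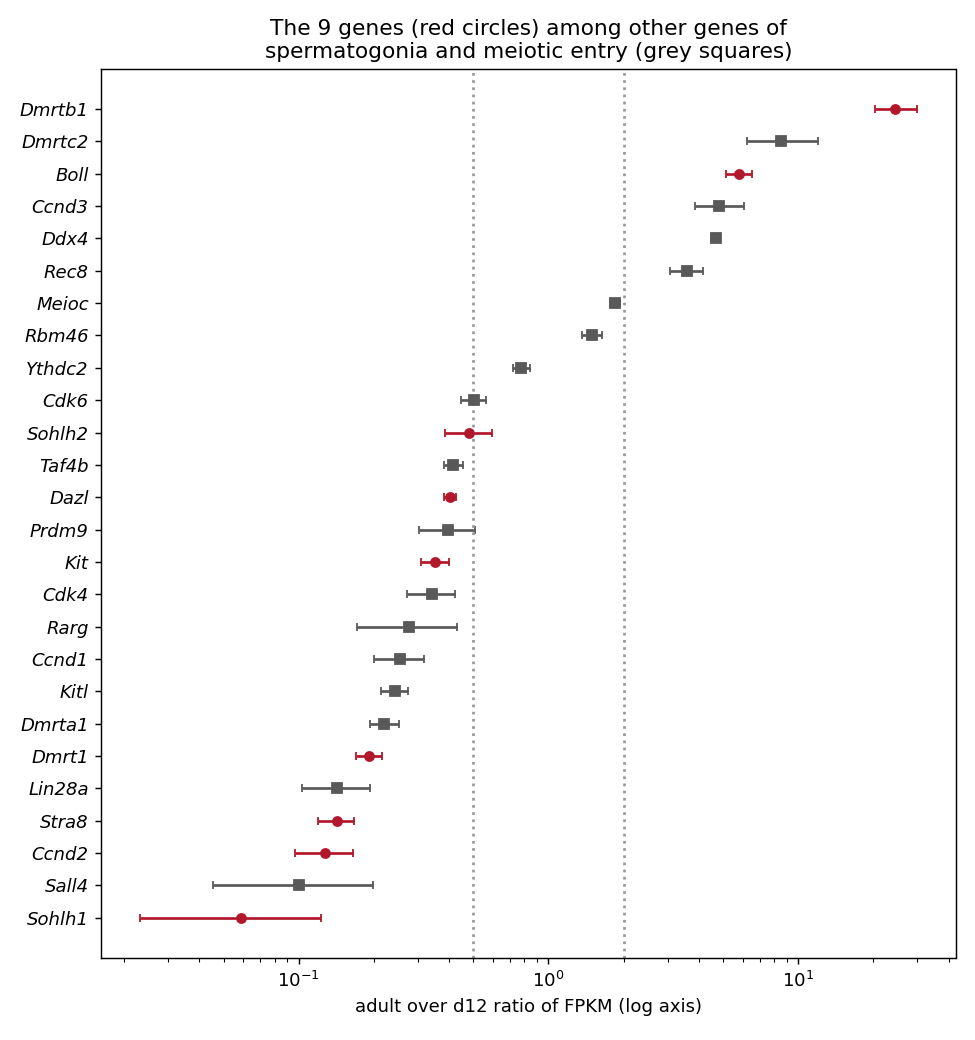
Adult over d12 ratio of FPKM as deposited (log axis) with 95% intervals for counting error, for the 9 genes and the 17 others past the filter. Dotted lines mark 2-fold changes. Dmrtb1 has the highest ratio, followed by Dmrtc2, and Sohlh1 the lowest, followed by Sall4.

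The course over stages was also set beside that of 13892 other genes, by the summed difference in the percent that each stage contributes to a gene's total over the 4 libraries. With 4 points per gene, many genes come close to any course, so closeness says little. Within 5 percentage points of Kit lay 154 genes, of Dmrt1 116, of Stra8 56, of Sohlh2 43, of Boll 36, of Dazl 34, of Ccnd2 31, of Dmrtb1 29 and of Sohlh1 9. The closest were Hist1h2an and Tuba1b to Kit, Il15ra and Tmem229b to Stra8, Snx24 and Itm2a to Sohlh1, Elac1 and Golm1 to Sohlh2, and Prkd3 and Tsc22d3 to Dmrt1. To Dmrtb1 the closest were Art5 and Dnaaf3, to Ccnd2 Armcx1 and Mageb4, to Dazl Bid and Sorl1, and to Boll Rbm46os and Rnf166. The smallest difference was that of Art5 from Dmrtb1, 0.789 percentage points, at 0.809 FPKM at d12, 1.87 at d16, then 19.3 at d24 and 19.9 in the adult.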

How the data were processed

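Total RNA of 4 testis libraries, 1 per stage, was sequenced as strand-specific read pairs of 50 bases. The authors mapped them with TopHat2 2.1.0, running Bowtie 1.1.2, to the GRCm38/mm10 genome with RefSeq genes supplied, and deposited FPKM values from Cuffdiff of Cufflinks 2.2.1, corrected for multiply mapping reads and sequence bias. How Cuffdiff scaled the libraries is not given in the sources used here. All sample columns were used.

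The 9 genes, the other lists and the rule for named genes were chosen with earlier results of these data known. Named genes are the members, genes of a list on spermatogonia and meiotic entry, and the 2 genes closest in course to each member.

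For genes with 1 curated RefSeq transcript (14604), FPKM times length mostly falls on whole multiples of the value of 1 fragment, 0.0799 FPKM per kb at d12, 0.0800 at d16, then 0.0455 at d24 and 0.112 in the adult. Of values up to 20 fragments, 91.7% to 92.3% lay within 0.05 of a whole number. Genes whose transcripts differ by at most 1.1 times in length used the mean length. Levels have exact Poisson and ratios exact Clopper-Pearson intervals at 95%. A limit of 3 fragments is 0.336 FPKM per kb in adult testis. Changes were read as ratios of FPKM plus 0.1 with a limit of 2-fold, over genes whose mean reached 1 FPKM. Motifs were searched on both strands. Values were computed in python 3.11.15 with scipy 1.17.1 for the intervals, pandas 2.3.3 and numpy 2.4.6. The fragment recovery and calls were tested on simulated data. Alternatives were other scalings, pseudocounts, filters and fold limits.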

Additional observations from a re-analysis of the deposited data

How the results depend on the processing

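Counts of members past the limit were recomputed under 8 settings for 4 pairs of stages in both directions, and 42 of 64 stayed within 1.5 times. The share of all genes under each setting stands in parentheses, and it moved with most counts. Rescaled to the same FPKM sum, 2 genes were lower from d12 to d16 (5.78%), 1 was higher from d16 to d24 (19.4%) and 4 were lower from d24 to adult testis (10%). With the upper quartile these were 2 (5.7%), 1 (23.3%) and 2 (4.13%). Divided by the Sertoli cell markers, 0 genes were lower from d12 to d16 (1.26%), 0 from d16 to d24 (1.04%) and 3 from d12 to adult testis (2.84%), and Kit, Sohlh2 and Dazl turned to ratios of 1.01, 1.38 and 1.16 from d12 to adult testis. A pseudocount of 1 FPKM gave 0 (0.942%), 3 (4.09%) and 0 (0.417%) lower genes over the 3 successive steps. A mean of at least 5 FPKM gave 0 (1.87%), 3 (5.79%) and 0 (0.801%), because Sohlh1 and Ccnd2 were not kept. A limit of 1.5-fold gave 5 lower genes from d12 to d16 (13.4%) and 3 from d24 to adult testis (8.72%). A limit of 3-fold left 0 higher (8.11%) and 0 lower (0.906%) from d12 to d16, 1 higher (19.5%) and 0 lower (1.3%) from d16 to d24 and 4 lower from d12 to adult testis (11.9%). The causes of other moves were not tested. Of 144 alternative ratios of single members, 56 stayed within the interval of counting error, and 12 lay on the other side of 1. With 1 library per stage, no library could be left out, and Sohlh1 in adult testis is limited by its 7 fragments. No paired analysis was possible because each stage has 1 library.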

Other observations

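The DM domain family has further members with values in the table. Dmrta1 took the course of Dmrt1, with 32.6 FPKM at d12, 25.3 at d16, then 12.3 at d24 and 7.19 in the adult, 4.54-fold lower at the end than at the start (3.98 to 5.19). Dmrtc2, known from pachytene spermatocytes, was 8.55 times higher in adult testis than at d12 (6.24 to 11.9), with 2.27, 9.44, 19.3 and 19.4 FPKM. Like Dmrtb1, it showed overlapping intervals at d24 and in adult testis. Dmrt2, Dmrt3 and Dmrta2 stayed below 1 FPKM in all 4 libraries. Neurog3, a factor of early spermatogonia, showed 2.02 FPKM from 39 fragments at d12 (1.44 to 2.77) and 0.571 FPKM from 11 at d16 (0.285 to 1.02), and Nanos3 had at most 7 fragments in any library.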
